A study of Mus musculus with 12 samples.

Results

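The extracellular matrix is the meshwork of collagens, glycoproteins, elastic fibres and proteoglycans that surrounds heart cells, and its excess is called fibrosis. 38 genes of this matrix and of its crosslinkers, proteases and growth factors were followed in hearts of PTCD1 knockout mice. They were chosen by symbol, with earlier results of these data known. All 38 were found among the 51875 nuclear gene features, of 51911 features in all. They comprise 5 fibrillar collagens, 7 other collagens, 9 matricellular and adhesive glycoproteins, 3 small proteoglycans, 3 genes of elastic fibres and microfibrils, 3 crosslinking enzymes, 5 proteases and protease inhibitors and 3 TGF-beta ligands.

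The RNA came from hearts of PTCD1 knockout (KO) or wild-type (WT) mice, and ribosomal RNA was depleted with Ribo-Zero before the libraries were made. PTCD1 is a mitochondrial protein that binds RNA. Each genotype had 3 libraries labelled control, called untreated here, and 3 labelled CMC treated, so that 12 libraries formed 4 groups. CMC is a carbodiimide that was applied to the isolated RNA, not to the animals, and it marks pseudouridine. Several facts are missing from the labels: the age of the mice, the promoter or cells in which the gene was deleted, the number of mice per library, and whether a CMC library shares its heart with the untreated library of the same number. The p-values therefore measure only the spread between these libraries, which may be technical.

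In the heart, fibroblasts make most of the fibrillar collagen, while endothelial and mural cells add basement membrane collagen. Matricellular proteins such as tenascin C, periostin and the CCN proteins do not bear load. They tune how cells adhere and respond to growth factors, and they are known to be induced in injured or stretched hearts. TGF-beta ligands are stored in the matrix in latent form, and once released they drive transcription of collagens, crosslinkers and protease inhibitors through SMAD proteins.

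Depth was 10389398 to 12462093 counts per library, of which 2683284 to 3187748 lay in nuclear genes. Ptcd1 itself had 28, 17 and 19 counts in untreated KO libraries and 78, 71 and 74 in untreated WT libraries, and 20 to 23 against 74 to 103 after CMC. Markers of heart muscle were abundant, with a summed level over 8 cardiomyocyte genes of at least 120897 normalised counts in every library. Replicate 3 of the WT CMC group stood apart. Its chi-square per degree of freedom against the other two libraries of its group was 2.08 and 2.43, where every other pair of replicates had 1.12 to 1.39. Numbers of calls that use this library are given with and without it below. Levels here are normalised counts, that is counts per 1000000 nuclear counts after TMM scaling, and levels of different genes are compared only per kb of counted exon length.

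Most of the matrix genes were higher in KO hearts. Of the 37 that had enough counts to be tested in untreated libraries, 31 rose, 3 fell and 3 did not pass (edgeR quasi-likelihood test, Benjamini-Hochberg adjusted over all nuclear genes, 0.05). Over all 12195 nuclear genes tested, 29.1% rose and 28.7% fell. Because the members were chosen with earlier results known, these counts are not an independent test of the set. The median log2 fold change of the tested members was 0.84, against -0.0036 over all genes tested. 11 members rose at least 2-fold, a size that 7.9% of all genes reached. The genes that fell were the proteoglycan gene Dcn, the protease gene Mmp2 and the inhibitor gene Timp2. In all 34 called members the KO and WT libraries did not overlap. Overlap was not counted over all genes, so this is not shown to be particular to the members. Together the 38 genes took 1.09% ± 0.00157 (SD, n = 3) of nuclear counts in KO and 0.606% ± 0.00602 in WT hearts. In bulk RNA, fewer cells of a type and less RNA per cell cannot be told apart.

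**Figure D1:**
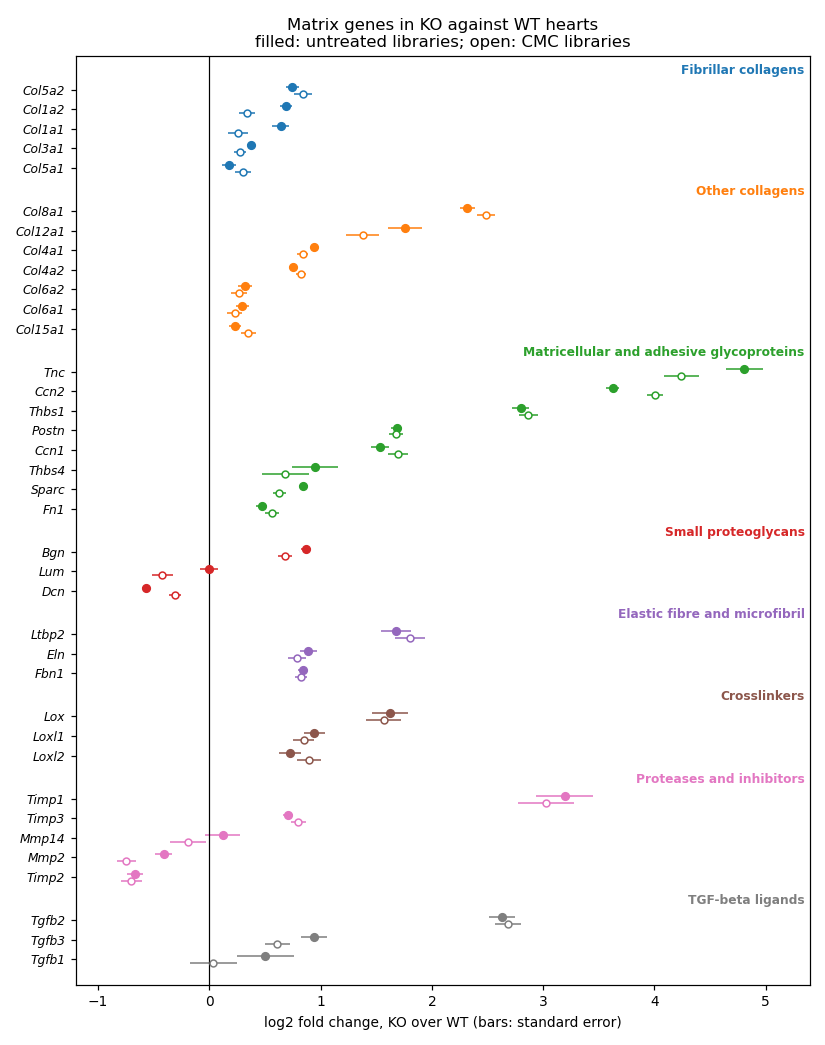
Log2 fold change of KO over WT (horizontal axis) with its standard error for the 37 tested genes, grouped by role, in untreated libraries (filled points) and CMC libraries (open points). Matricellular genes reach furthest to the right, with Tnc at 4.81 and Ccn2 at 3.63 in untreated libraries, while Dcn, Mmp2 and Timp2 lie left of 0.

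The CMC libraries gave similar numbers of calls. There 31 of 37 tested members rose, 4 fell and 2 did not pass, where 27.2% of 12198 genes rose and 26.8% fell. The median was 0.79, against -0.0080 over all genes tested. 11 rose at least 2-fold, a size that 7.89% of all genes reached. Dcn, Mmp2 and Timp2 were lower as before and Lum was lower as well. None of the 35 called members had overlapping groups, which again was not counted over all genes. Without WT CMC replicate 3, 34 members were called, where 52.2% of all genes were. The member lost was Col1a1 (log2 0.19, edgeR adjusted p = 0.0599, range over 13 alternatives 0.00208 to 0.0681).

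The genes with the largest rises in untreated hearts were Tnc, Ccn2, Timp1, Thbs1, Tgfb2 and Col8a1. RefSeq promoter windows on GRCm38.p6 were on hand for 24 of the 38 members. Those of Tnc, Timp1, Tgfb2 and Col8a1, the largest rises with a window, are shown because these genes rose together. Each run holds the 250 bases before an annotated start, 5′ to 3′ on the coding strand. Capitals mark matches to the motifs searched on both strands: GGAATG of TEAD factors, CAGACA of SMAD factors, TGANTCA of AP-1, TGATGNAAN of ATF4 with C/EBP proteins, and the CArG box of SRF.
Tnc (chr4:64047016-64047265, minus strand): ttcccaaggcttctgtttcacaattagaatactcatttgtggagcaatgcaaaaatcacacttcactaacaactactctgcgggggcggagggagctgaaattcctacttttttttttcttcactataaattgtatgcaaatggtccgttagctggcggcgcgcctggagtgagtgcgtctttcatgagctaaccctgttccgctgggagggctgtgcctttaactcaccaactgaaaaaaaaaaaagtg
Timp1 (chrX:20869916-20870165, plus strand): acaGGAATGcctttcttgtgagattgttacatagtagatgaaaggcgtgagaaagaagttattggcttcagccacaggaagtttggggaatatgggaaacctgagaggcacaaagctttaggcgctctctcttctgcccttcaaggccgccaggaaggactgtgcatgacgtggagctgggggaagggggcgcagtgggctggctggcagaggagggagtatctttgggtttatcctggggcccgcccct
Tgfb2 (chr1:186705990-186706239, minus strand): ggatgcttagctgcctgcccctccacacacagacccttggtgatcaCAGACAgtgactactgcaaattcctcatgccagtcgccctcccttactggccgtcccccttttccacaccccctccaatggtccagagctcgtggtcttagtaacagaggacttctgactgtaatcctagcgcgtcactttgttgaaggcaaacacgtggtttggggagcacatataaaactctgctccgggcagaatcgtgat
Col8a1 (chr16:57754738-57754987, minus strand): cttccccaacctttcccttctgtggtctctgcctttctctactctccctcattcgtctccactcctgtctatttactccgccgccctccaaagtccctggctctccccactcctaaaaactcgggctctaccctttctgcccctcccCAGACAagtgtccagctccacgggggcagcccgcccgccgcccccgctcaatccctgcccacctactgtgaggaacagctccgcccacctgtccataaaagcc
The Timp1 window held GGAATG 247 bases before its start. CAGACA lay 204 bases before the start of Tgfb2 and 103 bases before that of Col8a1. The Tnc window shown had none of the motifs, while the window of a second annotated Tnc start had the reverse complement of CAGACA 71 bases before it. Over the 28 member windows, 9 held the SMAD motif, 5 the TEAD motif, 1 the AP-1 motif and 0 the other motifs. Of all 32851 windows of this length, 17.1% held the SMAD motif, 12.6% the TEAD motif, 6.75% the AP-1 motif, 3.44% the ATF4 motif and 1.47% the CArG box. A match is a string of letters and not a known binding site.

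All 5 fibrillar collagens, which form the tensile fibres of scar, rose by less than 2-fold. Col1a2, which encodes a chain of collagen I, had 891, 816 and 774 counts in untreated KO libraries and 481, 479 and 432 in WT. All KO libraries lay above all WT libraries, and the rise was 1.62-fold (log2 0.69, SE 0.05, edgeR adjusted p = 1.40e-28). The partner chain Col1a1 had 326, 331 and 309 counts against 181, 182 and 199 (log2 0.64). The ratio of Col1a1 to Col1a2 per kb was 0.739 ± 0.0404 in KO and 0.768 ± 0.0903 in WT, a difference within the spread. Col3a1, the collagen of fine reticular fibres, was the most abundant of the 5 and had 2707, 2575 and 2550 counts against 1845, 1849 and 1794. Its rise was smaller, 1.29-fold (log2 0.37, SE 0.03, edgeR adjusted p = 6.29e-22). Of the collagen V genes, whose chains sit inside collagen I fibres, Col5a2 rose by 0.74 with 771, 619 and 648 counts against 371, 383 and 349. Col5a1 had 521, 466 and 507 counts against 409, 376 and 416 and a log2 fold change of 0.17 (SE 0.06, edgeR adjusted p = 0.00977, range over 13 alternatives 9.68e-06 to 0.0874). It did not pass with DESeq2 (0.19, adjusted p = 0.0874) or without WT untreated replicate 2 (0.13, edgeR adjusted p = 0.0860). In the authors' deposited table Col5a1 stands at 0.19 with an adjusted p of 0.0876.

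All 7 of the other collagens rose too, over a wider range. Col8a1 encodes a short-chain collagen of vessel walls. The gene (chr16:57624258-57754737, minus strand, mm10) had 924, 896 and 780 counts in untreated KO libraries and 169, 128 and 176 in WT. Every KO library lay far above every WT library. The rise was 4.98-fold (log2 2.32, SE 0.07, edgeR adjusted p = 4.67e-95), and 5.61-fold in CMC libraries. Col12a1, whose product lies on the surface of collagen I fibres, had 129, 109 and 122 counts against 34, 30 and 32, a 3.39-fold rise (log2 1.76, SE 0.15, edgeR adjusted p = 8.13e-24). In WT hearts Col12a1 was scarce, at 0.733 ± 0.0402 normalised counts per kb, and Col8a1 stood at 10.8 ± 1.67, close to Col1a1 at 9.95 ± 0.491. The basement membrane genes Col4a1 and Col4a2 were the most abundant collagens per kb, at 115 ± 1.163 and 113 ± 4.69 in WT. Col4a1 had 5147, 5249 and 5202 counts in KO against 2443, 2416 and 2495 in WT, and Col4a2 had 4042, 3988 and 3849 against 2169, 2015 and 2226. Their log2 rises were 0.94 (SE 0.03) and 0.75 (SE 0.03). The collagen VI genes Col6a1 and Col6a2, which form beaded filaments around cells, rose by 0.29 and 0.32. Col15a1, found in the matrix next to basement membranes, rose by 0.23 (SE 0.06, edgeR adjusted p = 0.000159).

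Some collagen genes are neighbours in the genome. Col4a1 and Col4a2 lie head to head on chromosome 8 and share 22 bases (chr8:11312805-11312826, mm10), shown as the plus strand because reads of these bases could be counted for either gene or for none.
Col4a1 and Col4a2: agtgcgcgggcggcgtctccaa
Their ratio per kb was 1.165 ± 0.0347 in KO and 1.02 ± 0.0387 in WT untreated libraries, without overlap, but 1.04 ± 0.0304 and 1.03 ± 0.0632 in CMC libraries, where the ranges overlapped. Col3a1 and Col5a2 lie 24614 bases apart on chromosome 1, and their log2 fold changes were 0.37 and 0.74. Col6a1 and Col6a2 lie 85161 bases apart on chromosome 10. Dcn and Lum, 46984 bases apart on the same chromosome, stood at -0.57 and -0.01 in untreated hearts, and whether these 2 values differ was not tested.

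All 8 tested matricellular and adhesive glycoproteins rose, and their median log2 fold change of 1.61 was the highest among the groups of members. Tnc encodes tenascin C, a glycoprotein that loosens cell adhesion and is scarce in the adult heart. The gene (chr4:63959785-64047015, minus strand, mm10) had 272, 289 and 284 counts in untreated KO hearts against 7, 15 and 5 in WT hearts. The lowest KO library thus held many times the highest WT library. The rise was 28.0-fold (log2 4.81, SE 0.17, edgeR adjusted p = 3.67e-81), and over 13 alternatives the log2 fold change ran from 4.52 to 5.39. In CMC libraries Tnc had 302, 284 and 233 counts against 11, 21 and 12, a rise of 18.9-fold.

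Ccn2, also known as Ctgf, encodes a secreted adaptor that binds growth factors and is induced by TGF-beta and by YAP. The gene (chr10:24595442-24598683, plus strand, mm10) had 1815, 1797 and 1902 counts in untreated KO libraries and 140, 126 and 139 in WT, a rise of 12.3-fold (log2 3.63, SE 0.06, edgeR adjusted p = 3.18e-153). After CMC its counts were 2066, 1960 and 2018 against 119, 136 and 131, a rise of 16.1-fold. Ccn1, or Cyr61, is the related gene of the same family. KO libraries had 433, 432 and 434 counts of it and WT libraries 124, 149 and 133, a smaller rise of 2.90-fold (log2 1.54, SE 0.08, edgeR adjusted p = 1.88e-50). Per kb, Ccn2 stood at 0.710 ± 0.103 of Ccn1 in WT and at 2.995 ± 0.0850 in KO hearts. The order of the pair was thus the opposite in the 2 genotypes, and the same held in CMC libraries, at 0.561 ± 0.0494 and 2.79 ± 0.186.

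Thbs1 encodes thrombospondin, which releases TGF-beta from its latent complex. It had 669, 825 and 860 counts in untreated KO libraries and 96, 111 and 100 in WT. The KO libraries varied among themselves, with the first below the other two, but all lay above WT (6.95-fold, log2 2.80, SE 0.08, edgeR adjusted p = 1.04e-99). Its relative Thbs4 was scarce, with 47, 54 and 57 counts against 31, 18 and 25, and rose by 0.95 (SE 0.20, edgeR adjusted p = 1.57e-05). In CMC libraries Thbs4 stood at 0.68 and DESeq2 did not call it (0.71, adjusted p = 0.0716, range over 13 alternatives 0.00309 to 0.0716). Postn encodes periostin, a product of activated fibroblasts. Its counts were 1709, 1478 and 1424 against 422, 444 and 436, a rise of 3.21-fold (log2 1.68, SE 0.05, edgeR adjusted p = 1.45e-96). Sparc, whose product binds collagen and helps its assembly, was the most abundant of the group per kb in WT, at 83.9 ± 2.37. It had 1857, 1772 and 1781 counts against 897, 930 and 906 (log2 0.84). Fn1, the gene of fibronectin, on which collagen fibres assemble, rose least, by 0.47, with 840, 735 and 801 counts against 521, 520 and 515. Spp1, the osteopontin gene that macrophages and stressed heart muscle can express, had 0 to 4 counts in every library and was not tested, so a difference was not detectable at this depth.

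**Figure D2:**
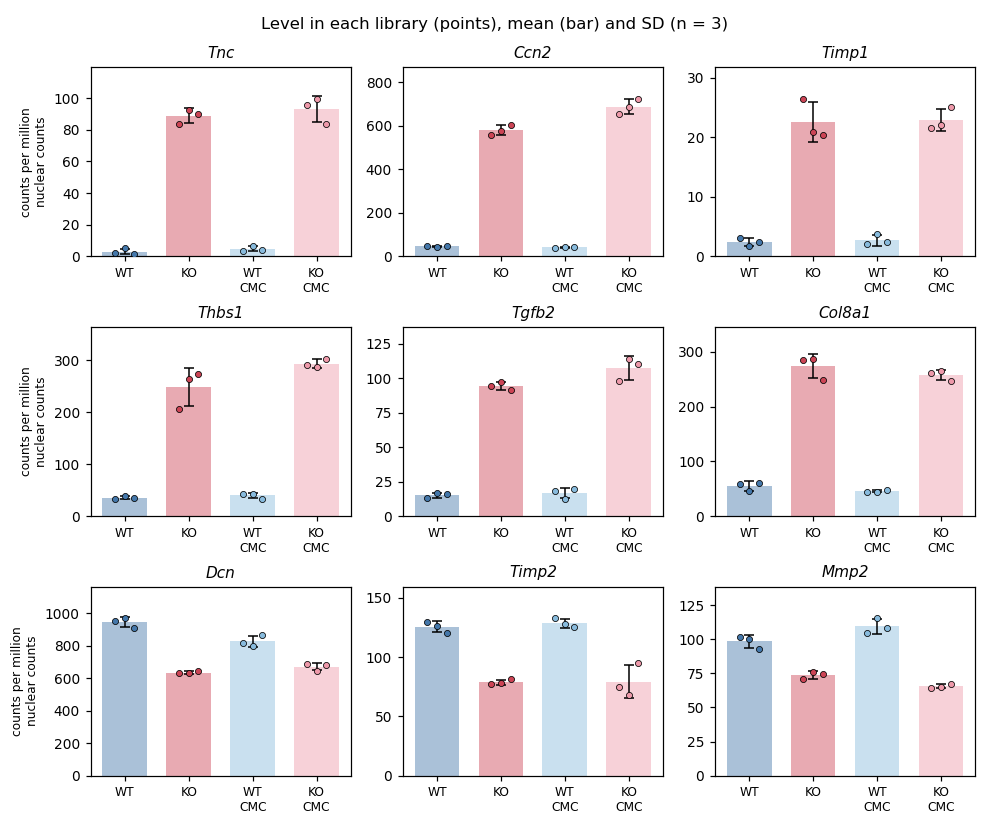
Level of 9 genes in each of the 12 libraries (vertical axis, normalised counts per 1000000 nuclear counts), by group. Points are libraries, bars are group means and error bars are the SD (n = 3). The upper 6 genes are higher in every KO library, and Dcn, Timp2 and Mmp2 are lower in every KO library.

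The small leucine-rich proteoglycans, which coat collagen fibres and bind TGF-beta, split. Dcn, the decorin gene, fell and was the most abundant member per kb in WT hearts, at 162 ± 5.18. The gene (chr10:97479609-97518143, plus strand, mm10) had 2047, 1966 and 2032 counts in untreated KO libraries and 2746, 2752 and 2631 in WT, and all KO libraries lay below WT (1.48-fold lower, log2 -0.57, SE 0.03, edgeR adjusted p = 1.99e-42). In CMC libraries the fall was smaller, 1.24-fold (log2 -0.31). Bgn, the biglycan gene, rose, with 1224, 1127 and 1277 counts against 590, 614 and 600 (1.82-fold, log2 0.87, SE 0.05, edgeR adjusted p = 2.58e-47). Lum, the lumican gene, had 252, 267 and 249 counts against 239, 229 and 231. Its levels overlapped between genotypes and the log2 value was -0.01 (SE 0.08, edgeR adjusted p = 0.962). In CMC libraries Lum fell by 0.42 (SE 0.10, edgeR adjusted p = 0.000356), with 192, 157 and 160 counts in KO and 223, 274 and 204 in WT. As a share of the 3 genes' summed level per kb, Dcn took 70.5% ± 0.432 in WT and 53.3% ± 0.411 in KO, and Bgn took 14.99% ± 0.387 and 30.6% ± 1.23.

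The 3 genes of elastic fibres and microfibrils rose. Ltbp2, which binds fibrillin and guides elastic fibre assembly, had 157, 158 and 148 counts in untreated KO libraries and 44, 44 and 43 in WT, a 3.20-fold rise (log2 1.68, SE 0.13, edgeR adjusted p = 1.79e-27). Eln, the elastin gene, had 400, 339 and 394 counts against 175, 191 and 189 (log2 0.89). Fbn1, the gene of fibrillin and the most abundant of the group per kb, had 2041, 1992 and 1977 against 1003, 1011 and 1033 (log2 0.84).

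Lysyl oxidases link collagen and elastin chains to each other, and all 3 genes measured rose. Lox had 123, 89 and 98 counts in untreated KO libraries and 31, 28 and 32 in WT (3.08-fold, log2 1.62, SE 0.16, edgeR adjusted p = 4.78e-19). Loxl1 had 247, 234 and 243 counts against 99, 95 and 147, so 1 WT library lay above the other two yet below KO (log2 0.94). Loxl2 rose by 0.73, with 205, 184 and 211 counts against 119, 107 and 103. Loxl1 took the largest share of the summed level per kb in both genotypes, 55.9% ± 6.57 in WT and 55.7% ± 1.69 in KO, while the share of Lox was 10.4% ± 0.820 and 16.3% ± 1.93.

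Among proteases and their inhibitors the direction depended on the gene. TIMP proteins block matrix metalloproteases. Timp1, which is induced in inflamed or injured tissue, had 86, 65 and 64 counts in untreated KO libraries and 9, 5 and 7 in WT. The rise was 9.14-fold (log2 3.19, SE 0.25, edgeR adjusted p = 2.52e-27). Over 13 alternatives its log2 fold change ran from 3.01 to 3.41. Timp3, which binds to the matrix itself, rose by 0.71 with 1149, 1068 and 1211 counts against 634, 628 and 644. Timp2, whose product also takes part in the activation of MMP2, fell 1.59-fold (log2 -0.67, SE 0.07, edgeR adjusted p = 5.07e-17), with 251, 244 and 256 counts against 374, 359 and 348. Mmp2, the gelatinase gene, fell as well, with 230, 237 and 235 counts against 293, 285 and 269 (1.33-fold lower, log2 -0.41, SE 0.08, edgeR adjusted p = 6.89e-07). In CMC libraries Mmp2 was 1.68-fold lower. Mmp14, a membrane-bound protease that activates MMP2, had 76, 68 and 56 counts against 50, 57 and 60, which overlap (log2 0.12, SE 0.16, edgeR adjusted p = 0.535). The make-up of the inhibitors thus differed between genotypes. Timp1 took 4.40% ± 1.15 of their summed level per kb in WT and 28.2% ± 3.50 in KO, and Timp2 took 51.8% ± 1.05 and 22.6% ± 1.12.

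Of the TGF-beta ligand genes, Tgfb2 changed most. The gene (chr1:186622792-186705989, minus strand, mm10) had 307, 302 and 287 counts in untreated KO libraries and 38, 47 and 46 in WT, a rise of 6.19-fold (log2 2.63, SE 0.11, edgeR adjusted p = 1.45e-63). Tgfb3 had 173, 152 and 165 counts against 75, 61 and 95, a 1.92-fold rise (log2 0.94, SE 0.12, edgeR adjusted p = 1.22e-13). Tgfb1 was scarce, with 34, 25 and 24 counts against 17, 19 and 17. All its untreated KO libraries lay above WT, but the difference did not pass (log2 0.50, SE 0.26, edgeR adjusted p = 0.0824, range over 13 alternatives 0.0286 to 0.337). It passed only when nuclear totals were used without TMM (0.62). In CMC libraries Tgfb1 had 30, 32 and 29 counts in both genotypes (log2 0.04). Tgfb3 took 66.9% ± 5.82 of the ligands' summed level per kb in WT and 45.8% ± 1.66 in KO, while Tgfb2 went from 22.6% ± 3.94 to 49.0% ± 1.83. Tgfb3 overlaps Ttll5 on the opposite strand, and the labels do not state if reads were assigned by strand, so its values are uncertain. Timp2 overlaps Cep295nl on its own strand, as Col5a2 does Gm38211 and Col1a2 does Gm43921, so reads of the shared bases cannot be assigned with certainty.

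**Figure D3:**
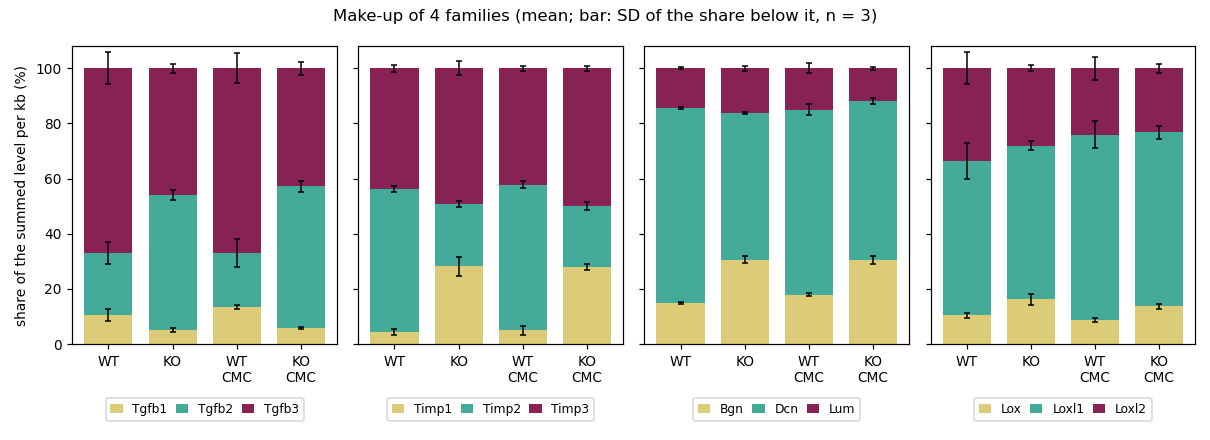
Share (vertical axis, %) of each gene in the summed level per kb of its family, in the 4 groups, as means with the SD of each share (n = 3) drawn at the top of its segment. Tgfb2, Timp1 and Bgn take larger shares in KO than in WT, with and without CMC, while the share of Loxl1 is close to level between genotypes.

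Members at similar levels changed by different amounts. Tnc, the gene with the largest rise, was the scarcest tested member in WT at 0.405 ± 0.243 normalised counts per kb, and Dcn, the most abundant, fell. Ccn2 at 16.4 ± 0.797 and Fn1 at 15.5 ± 0.212 were close in WT level, but rose by 3.63 and 0.47 on the log2 scale. Col12a1 and Tgfb1, both near 1, stood at 1.76 and 0.50.

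**Figure D4:**
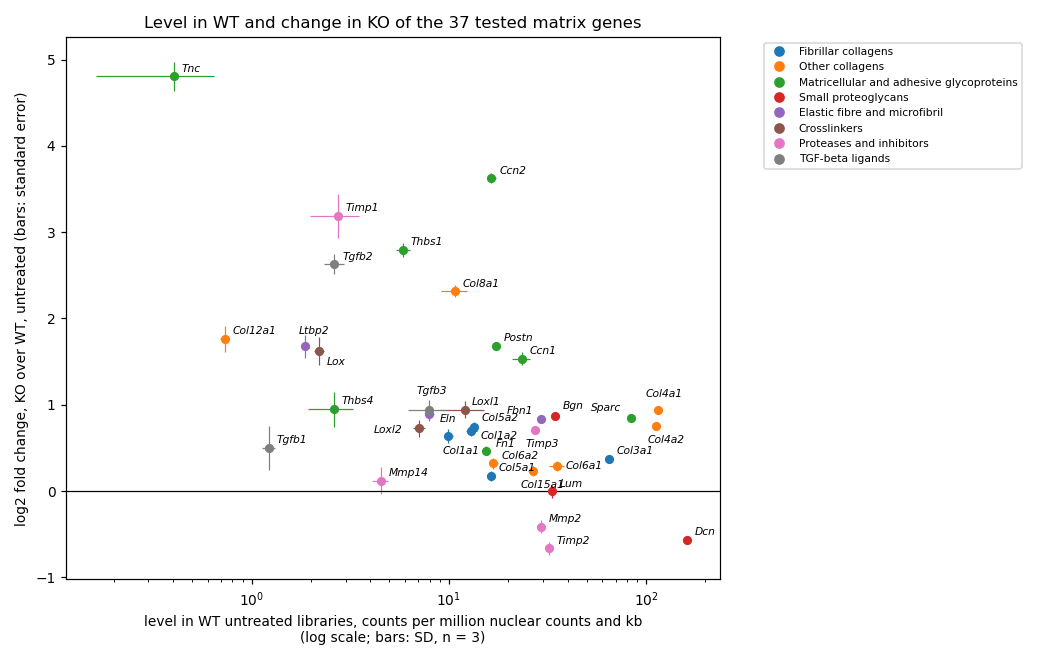
Level in untreated WT libraries (horizontal axis, log scale, normalised counts per kb, SD with n = 3) against the log2 fold change of KO over WT with its standard error (vertical axis) for the 37 tested genes, coloured by role. Genes at the same level differ widely in change, such as Ccn2 at 3.63 and Fn1 at 0.47.

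Lists of related genes cover the wider pathway, and their counts in untreated KO against WT stand against the 29.1% and 28.7% of all genes. In the TGF-beta list of receptors, SMADs and targets, 13 of 23 tested genes rose, 4 fell and 6 did not pass. Inhba, an activin subunit, rose by 2.59 and Fstl3, an activin antagonist, by 2.07, while Ltbp1, which tethers latent TGF-beta, fell by 1.10. The receptor genes Tgfbr3 and Tgfbr2 fell by 0.97 and 0.24, and Tgfbr1 stood at -0.22 (edgeR adjusted p = 0.0800). These receptors were named after their values were seen. The list for YAP, SRF and mechanical signalling holds regulators such as Srf besides targets. Of its 19 tested genes, 9 rose, 4 fell and 6 did not pass. Ankrd1, a stress-induced protein of the sarcomere and a YAP target, rose by 2.42, with 21817, 20170 and 20630 counts against 3577, 3437 and 3623. The immediate early genes Fos (1.90) and Junb (1.01) rose as well, as did Nuak2 (1.09), which DESeq2 did not call (adjusted p = 0.141).

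Collagen maturation genes act in the endoplasmic reticulum and during secretion. Of 18 tested, 11 rose, 2 fell and 5 did not pass. Serpinh1, the collagen chaperone, rose by 0.91 with 1619, 1488 and 1573 counts against 748, 718 and 789. The prolyl hydroxylases P4ha1 and P4ha2 rose by 0.79 and 0.77, and P3h4 fell by 0.78. Collagen genes outside the members went both ways, with 3 of 13 higher and 5 lower. Col6a6 fell by 2.15, with 21, 17 and 11 counts against 71, 65 and 63, and Col4a6 fell by 1.26. Col8a2, a partner chain of Col8a1, rose by 1.39 and Col23a1 fell by 1.13, but both calls were lost with DESeq2 (adjusted p = 0.0624 and 0.0800). Of 12 basement membrane genes 5 rose and 4 fell, with the laminin genes Lama3 at 1.33, Lamc1 at 0.59, Lama5 at -0.44 and Lama4 at -0.42.

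Of 15 other matrix proteases and inhibitors, 7 rose, 3 fell and 5 did not pass. The proteoglycan-cutting enzymes Adamts1 (2.31) and Adamts4 (1.77) and the membrane protease Adam12 (1.51) rose, and Mmp15 fell by 1.45. Of 20 integrins and matrix receptors, 7 rose, 5 fell and 8 did not pass. The fibronectin receptor subunit Itga5 rose by 1.02 and the hyaluronan receptor Cd44 by 0.95, while Itga8 fell by 1.12 and the dystroglycan gene Dag1 fell by 0.65.

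Cell type markers are given beside the 29.1% of all genes that rose and the 28.7% that fell, and their part in the results above was not tested. Of 11 tested cardiac fibroblast markers 7 fell, 2 rose and 2 did not pass. Their summed level over 12 genes was 1671 to 1765 normalised counts in untreated KO and 2600 to 2619 in WT libraries. Scara5 fell by 2.50 and Gsn by 0.90, while Mfap5 rose by 1.27. Gsn averaged 1125 normalised counts over the untreated libraries, so it weighed heavily in the sum of the fibroblast markers. Whether that sum fell without Gsn was not tested. Among 10 tested markers of activated fibroblasts or myofibroblasts 3 rose, 1 fell and 6 did not pass, with a summed level of 681 to 716 against 589 to 622. Those that rose were Cilp (2.42), Meox1 (1.83) and Ltbp2, which is also a member. The smooth muscle actin gene Acta2, which marks both myofibroblasts and smooth muscle and is counted in both lists, fell by 0.54, and Cthrc1 had at most 5 counts in every library.

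Of 10 smooth muscle and pericyte markers 5 fell, Abcc9 by 1.27 and Myh11 by 0.68 among them, and 1 rose. Their summed level was 1983 to 2003 against 2833 to 2854. Abcc9 averaged 548 normalised counts over the untreated libraries, so it weighed heavily in this sum. Whether its fall came from smooth muscle cells and pericytes was not tested. Of 10 endothelial markers 5 fell and 1 rose, with a summed level of 1628 to 1731 against 1819 to 1876. Of 10 macrophage markers 6 did not pass and 4 rose, Cd68 (1.02), C1qa (0.64), C1qc (0.63) and C1qb (0.53). The summed level was 484 to 492 against 400 to 420. All 8 cardiomyocyte markers fell (median log2 value -1.01), and their summed level was 120897 to 121153 against 198249 to 201792. Of 5 erythroid markers 4 fell, and of 3 adipocyte markers 2 fell. The erythroid calls of Alas2 and Hba-a1 were kept in only 9 and 8 of 13 alternatives. Of 4 epicardial or mesothelial markers 2 fell and 1 rose. The lymphocyte markers were too scarce to test, and of the chondrocyte and bone markers Bglap was at 0 in all libraries.

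**Figure D5:**
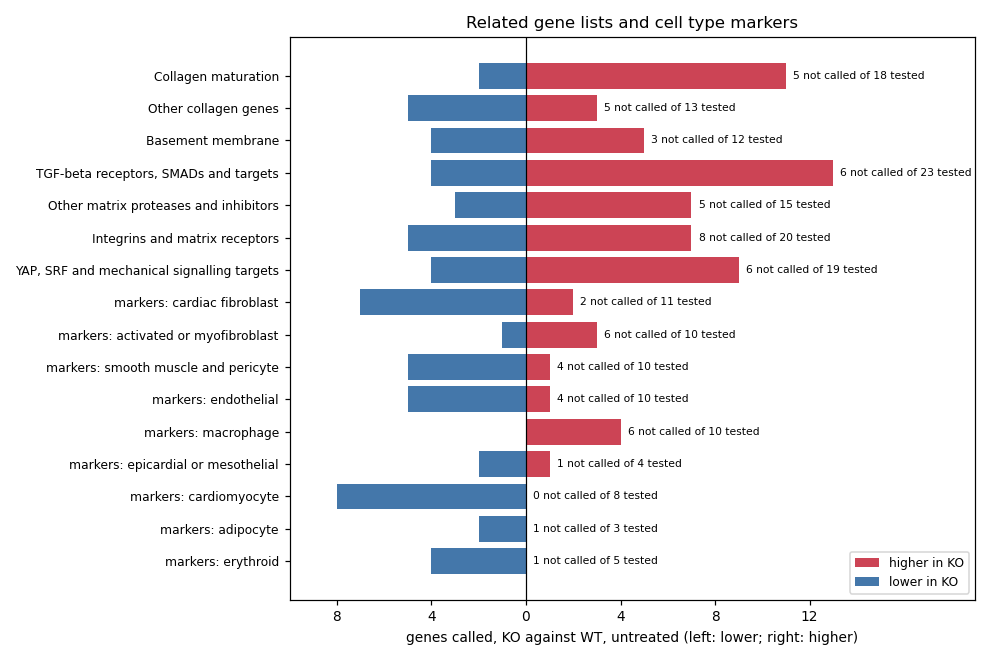
Number of genes of each related list and cell type marker list called higher (right, red) or lower (left, blue) in untreated KO against WT libraries, with the number not called of those tested printed beside each bar. TGF-beta receptors, SMADs and targets had 13 higher and 4 lower, while cardiac fibroblast markers had 2 higher and 7 lower and all 8 cardiomyocyte markers were lower.

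CMC changed few of the matrix genes in WT libraries. Of 36 members tested, Loxl1 rose (log2 0.51, SE 0.13, edgeR adjusted p = 0.0246, range over 12 alternatives 0.000311 to 0.235) and Dcn fell by 0.19 (SE 0.05, edgeR adjusted p = 0.0197, range over 13 alternatives 2.06e-05 to 0.174), where 2.23% of all genes were called. Loxl1 had 176, 196 and 140 counts after CMC against 99, 95 and 147 without, which overlap. Without WT CMC replicate 3, 6.1% of all genes and 5 of the members were called: Col1a1 (0.29), Col5a1 (0.22), Sparc (0.25) and Loxl1 (0.62) rose and Dcn fell by 0.22. With WT untreated or CMC replicate 1 or 2 left out singly, edgeR called 0 members and 73 to 207 of all genes. With all WT libraries, 12 of 36 members had an unadjusted edgeR p under 0.05, as did 1773 of all 12099 genes. DESeq2 called 1 member and 88 of all genes.

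In KO libraries 10 of 37 members changed with CMC, where 12.1% of all genes were called. Loxl1 (0.42), Ccn1 (0.35), Col5a1 (0.30), Ccn2 (0.24), Thbs1 (0.24), Fn1 (0.16) and Col4a2 (0.11) rose. Lum fell by 0.49, Col1a2 by 0.23 and Col3a1 by 0.15. Thbs1 did not pass in 2 of 13 alternatives, with DESeq2 (adjusted p = 0.287) and without KO untreated replicate 1 (edgeR adjusted p = 0.202). Fn1 did not pass in 3, with DESeq2 (adjusted p = 0.131) and without KO untreated replicate 2 or KO CMC replicate 2 (edgeR adjusted p = 0.187 and 0.0966). Col4a2 did not pass in 3, with all 12 libraries in the edgeR model (adjusted p = 0.0593) and without KO untreated replicate 1 or 3 (edgeR adjusted p = 0.0709 and 0.122).

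The effect of CMC differed between genotypes for 3 of 37 members, where 1.49% of all genes were called. Dcn fell with CMC in WT by 0.19 and stood at 0.07 in KO, a difference of 0.27 (SE 0.06, edgeR adjusted p = 0.0109, called in all 18 alternatives). Col1a2 stood at 0.11 in WT and fell by 0.23 in KO, a difference of -0.34 (SE 0.09, edgeR adjusted p = 0.0359, called in 9 of 18 alternatives). Ccn2 stood at -0.14 in WT and rose by 0.24 in KO, a difference of 0.39 (SE 0.11, edgeR adjusted p = 0.0473, called in 5 of 18 alternatives). Without WT CMC replicate 3, 4.76% of all genes were called. Col1a1 (-0.45), Sparc (-0.27) and Lum (-0.48) were then called as well, which made 6 members.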

How the data were processed

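The authors deposited whole-number counts per gene, and a table of their own comparisons with log2 fold changes and adjusted p-values. Per the submitters' processing notes, the software comprised DESeq2 1.16.1, featureCounts 1.5.1, HISAT2 2.0.5 and SAMtools 1.5 on the mm10 build. Their roles and the strand setting are not stated there. The 36 mitochondrial features, which took 70.5% to 75.4% of counts, were left out. Nuclear genes that passed filterByExpr were scaled by TMM and tested with edgeR 4.0.16 (glmQLFit, glmQLFTest, R 4.3.3), separately for each pair of groups and with all 12 libraries for the difference in CMC effect. Standard errors were the absolute log2 fold change over the square root of F. Alternatives were DESeq2 1.42.0, other scalings, no filter, all libraries in 1 fit, a replicate block and leaving out each library. The members and lists were chosen with earlier results of these data known. Members were described in full, and from each related list up to 4 called genes with the largest absolute change and at least 1 normalised count on average were named, except for 1 gene that is not reported here. The listed symbols Leprel2, Mkl1 and Mkl2 matched no gene. Counting limits the precision of scarce genes such as Thbs4 and Tgfb1. The same holds for the size of the rises of Tnc and Timp1, which had few counts in WT libraries.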

Additional observations from a re-analysis of the deposited data

Results flagged for a closer look

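The effect of CMC differed between genotypes for 3 matrix genes in the test of that difference over all 12 libraries (edgeR quasi-likelihood, adjusted over all genes). The difference, KO minus WT, was -0.34 for Col1a2, 0.39 for Ccn2 and 0.27 for Dcn on the log2 scale. Col1a2 and Ccn2 moved in opposite directions, and only the Dcn call was kept in all 18 alternatives.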

How the results depend on the processing

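The counts of members called between KO and WT stayed within 1.5 times under every alternative tried, as did the count for CMC in KO. Over all genes, these fits called 4957 to 7452 in untreated libraries, 4881 to 6992 in CMC libraries and 505 to 1461 for CMC in KO. Lum in untreated libraries changed sign and was not called under any of these, at 0.013 with DESeq2, 0.11 with nuclear totals, 0.020 without the filter, and from -0.047 (without KO untreated replicate 2) to 0.026 (without KO untreated replicate 1) when 1 library was left out. When 1 library was left out, the erythroid marker Hba-a1 ranged from -0.40 (without WT untreated replicate 1) to 0.10 (without WT untreated replicate 3), and Tgfb1 in CMC libraries reached -0.015 without KO CMC replicate 2. For CMC in WT, DESeq2 called 1 member in all and 0 higher, while nuclear totals and the fit over all 12 libraries each gave 2 higher. Leaving out 1 library gave 0 to 5 members, 0 to 4 higher and 0 to 1 lower. The calls over all genes moved as well: 88 with DESeq2, 308 with nuclear totals and 436 with all 12 libraries. They were 73 to 750 with 1 library left out. For the difference in CMC effect, DESeq2 called 1 member, 1 higher and 0 lower. TMM over all genes, nuclear totals and the replicate block each gave 1 higher, and nuclear totals gave 2 lower. Leaving out 1 library gave 1 to 6 members, 1 to 2 higher and 0 to 4 lower. Of all genes, DESeq2 called 96, TMM over all genes 187, nuclear totals 171 and the replicate block 178. With 1 library left out, 78 to 621 of all genes were called, the most without WT CMC replicate 3. The count of members was 6 without WT CMC replicate 3. It was 1 without KO untreated replicate 1 or 2, any WT untreated replicate, KO CMC replicate 2, or WT CMC replicate 1 or 2. Those fits with 1 member called 78 to 160 of all genes. The cause was not tested. The numbers were not used to pair samples, since same-numbered libraries showed no clear shared deviation. Between genotypes their correlations were -0.12 to -0.017. Same-numbered untreated and CMC libraries of a genotype had -0.032 to 0.066, against -0.057 to 0.044 for different numbers. Whether same-numbered untreated and CMC libraries share a heart is not settled by this. With the replicate block 34 members were called in untreated and 35 in CMC libraries, 2 for CMC in WT, 10 for CMC in KO and 2 for the difference. Over all genes the block gave 7018, 6411, 264, 1436 and 178 calls, in the same order. Nuclear totals without TMM shifted the median of all genes by 0.119 in untreated and 0.0782 in CMC libraries, and 61.5% and 57.5% of calls were then higher. For CMC in WT that share was 60.7%, where 117 of 270 calls were higher with TMM, and for the difference 52.1%, where 140 of 190 were. Depth limits Spp1, with 0 to 4 counts.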

Other observations

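The authors' deposited table lists all 38 genes, of which 30 were higher and 3 lower in KO at an adjusted p below 0.05. The share of all genes called there was not counted, so these numbers have no background beside them.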
